A study of Mus musculus with 40 samples.

Results

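The genes described here encode subunits of the hyperpolarization-activated, cyclic nucleotide-gated (HCN) channels, Hcn2, Hcn3 and Hcn4, and their auxiliary subunit TRIP8b, which is the product of Pex5l. These 4 genes were chosen by name, through their Ensembl identifiers, from the 47643 genes counted in each of 40 RNA-seq libraries. Other members of the channel family are not analysed here. The libraries came from hippocampus and frontal cortex of germ-free, wild-type Swiss Webster mice, given in the methods as females of 6 to 8 weeks on a standard diet, that received human stool by gavage. Each of 20 cohorts was colonized with stool that 1 of 10 donors treated for refractory epilepsy gave before a ketogenic diet (pre-KD) or while on it (post-KD), and tissue was taken on day 4. A library is a pool of 6 mice, so there were 10 libraries for each of hippocampus pre-KD, hippocampus post-KD, frontal cortex pre-KD and frontal cortex post-KD, and mouse-to-mouse spread cannot be seen. Every mouse carried a human microbiota, and no untouched germ-free or conventional brain was compared. The study asked whether the post-KD microbiota, which it had tested for an effect on seizure threshold, also alters brain gene expression.

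HCN channels open when a neuron is hyperpolarized and pass a mixed sodium and potassium current, called Ih, that helps to set resting potential, rhythmic firing and the summation of dendritic inputs. The channels are tetramers of like or unlike subunits, and cyclic AMP (cAMP) binding inside the cell eases the opening of some of them, HCN2 and HCN4 in particular. HCN4 is best known from the pacemaker cells of the heart and from thalamus, HCN2 is widespread in brain, and HCN3 is usually scarce there. TRIP8b is a cytoplasmic protein that binds the channels, controls how many reach the membrane and lowers their response to cAMP. HCN channels and TRIP8b are studied in epilepsy because Ih shapes neuronal excitability.

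TRIP8b grips the extreme carboxyl end of the channel subunits, so the coding bases of that end are shown for the 3 channel genes. Each line holds the last 30 coding bases before the stop codon, read 5′ to 3′ on the coding strand from GENCODE M21 transcripts of the GRCm38 (mm10) build, and capitals mark the last 3 codons.
Hcn2: tctgcgcgctcgcgcctctctTCCAACTTG
Hcn3: cccagaggtccccaaatttctGCCAACATG
Hcn4: ccagtacgctccaaactgccgTCTAATTTA
The stretches lie in exon 8 of 8 of each gene, at chr10:79735508-79735537 on the plus strand for Hcn2, at chr3:89147602-89147631 on the minus strand for Hcn3 and at chr9:58860731-58860760 on the plus strand for Hcn4. Hcn2 and Hcn4 share 0 of these 3 codons and 6 of their 9 bases, yet the codons translate to the same 3 residues. Hcn3 shares 1 of 3 residues with each of the others. The coding sequences run to 863 codons in Hcn2, 779 in Hcn3 and 1201 in Hcn4.

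The genes are Hcn2 (ENSMUSG00000020331, chr10:79716634-79736108, plus strand), Hcn3 (ENSMUSG00000028051, chr3:89146074-89160196, minus strand), Hcn4 (ENSMUSG00000032338, chr9:58823412-58863175, plus strand) and Pex5l (ENSMUSG00000027674, chr3:32949408-33143247, minus strand), in mm10 positions from GENCODE M21. Hcn3 overlaps the pyruvate kinase gene Pklr on the other strand, and Pex5l overlaps 3 annotated genes on the other strand and 2 on its own. The strand setting of the counting is not given in the sources used here, so reads of overlapping genes cannot be told apart.

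Library totals lay between 1140756 and 2095352 counted reads. In CPM, counts scaled to a fixed library total, 3 reads in a library correspond to between 1.43 and 2.63 on these unscaled totals. The limits of 3 counts and the CPM summed over a group also use unscaled totals. For all other CPM values, library totals were first scaled by the trimmed mean of M values (TMM). The pools of donors 9 and 10, 8 libraries in both regions and both conditions, held 78.9 to 179 CPM over 4 Y-linked genes and 3.4 to 27.2 CPM of Xist. In the other 32 libraries the Y-linked sum was at most 15.8 CPM and Xist was between 450 and 729 CPM, so these 8 pools go against the stated sex, and the fitted values of Hcn2, Hcn3 and Pex5l without them are given after the comparisons. The tissue labels were checked against markers. The sum of 10 hippocampus markers was 898 to 1407 CPM in hippocampus and 486 to 854 CPM in frontal cortex. The sums of 10 neocortex markers overlapped, at 377 to 746 CPM in hippocampus and 472 to 844 CPM in frontal cortex. Of these neocortex markers 4 were called lower and 2 higher in hippocampus after adjustment. Markers of neighbouring tissue also differed by region. The sum of 7 striatum markers was 24.9 to 241 CPM in hippocampus and 369 to 844 CPM in frontal cortex, and the sum of 7 choroid plexus markers was 716 to 5518 and 130 to 869 CPM. Thalamus and habenula markers, of interest because thalamus is rich in Hcn4, summed to 50.3 to 217 CPM in hippocampus and 31.8 to 162 CPM in frontal cortex.

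Hcn2 was the most abundant of the 3 channel genes in both regions. Over 10 hippocampal pre-KD libraries its CPM had a lowest value of 22.5, a median of 67.2 and a highest value of 114, and over 10 post-KD libraries these were 29.0, 59.4 and 140. In frontal cortex they were 35.1, 81.2 and 141 CPM pre-KD and 33.5, 93.2 and 146 CPM post-KD. The 4 groups overlapped widely, with the frontal cortical medians above the hippocampal ones. Mean levels were 65.8 ± 28.7 and 64.7 ± 33.1 CPM in hippocampus and 82.9 ± 31.8 and 99.3 ± 33.3 CPM in frontal cortex (pre-KD and post-KD, SD, n = 10 each).

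Hcn3 was counted at a median of 3 reads per library in hippocampus and 13.5 in frontal cortex, and was missing from many hippocampal libraries. It was at 0 reads in 4 of 10 hippocampal pre-KD libraries and 3 of 10 post-KD libraries, against 1 and 0 of 10 in frontal cortex. Its CPM ran from 0 over a median of 0.943 to 17.9 in hippocampus pre-KD and from 0 over 2.96 to 24.0 post-KD. In frontal cortex the lowest, median and highest values were 0, 6.24 and 17.3 CPM pre-KD and 2.31, 8.76 and 21.03 CPM post-KD. A few hippocampal libraries stood above most frontal cortical ones, while most of the rest were near 0. The high ones were donor 6 pre-KD at 17.9 CPM (31 reads) and donors 9, 2 and 4 post-KD. These post-KD libraries were at 24.0, 20.7 and 12.2 CPM (37, 35 and 21 reads). Summed over a group, Hcn3 made up 3.42 CPM (exact 95% Poisson interval 2.57 to 4.45) in hippocampus pre-KD and 7.63 CPM (6.28 to 9.19) post-KD, intervals that cover counting error only. Donor 6 held 31 of the 55 reads of the pre-KD group, and donors 9 and 2 held 37 and 35 of the 111 reads of the post-KD group.

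Hcn4 was close to undetected. Hippocampus held 0 reads in all 10 pre-KD libraries, which allows up to 0.186 CPM over the group by the limit of 3 counts, and 10 reads in all in the post-KD libraries, every read in the library of donor 6 (8.05 CPM). In frontal cortex 13 reads fell in 3 of 10 pre-KD libraries, 11 of them in donor 4 (6.21 CPM), and 10 reads fell in 1 of 10 post-KD libraries, donor 2 (4.99 CPM). Hcn4 therefore stood at 0 in 35 of 40 libraries and rested on 3 libraries of 10 or 11 reads each plus 2 single reads. The thalamus and habenula markers summed to 68.4 CPM in the hippocampal library with Hcn4 reads, below 17 of the 20 hippocampal libraries, and to 117 and 108 CPM in donor 4 pre-KD and donor 2 post-KD of frontal cortex, where 6 and 7 libraries of the region were higher.

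Pex5l, the TRIP8b gene, was counted in every library. Its lowest, median and highest values were 14.7, 94.2 and 129 CPM in hippocampus pre-KD and 39.4, 114 and 165 CPM post-KD. In frontal cortex they were 68.8, 81.0 and 112 CPM pre-KD and 58.3, 74.7 and 107 CPM post-KD. The groups overlapped, and the hippocampal libraries spread further in both directions, from donor 7 pre-KD at 14.7 CPM and donor 5 post-KD at 39.4 CPM up to donor 7 post-KD at 165 CPM. The coefficient of variation within conditions was 40.9% in hippocampus, where 826 genes of like mean count had a median of 34.2%. In frontal cortex it was 20%, where 928 such genes had a median of 29.2%. For Hcn2 the values were 47.5% beside 41.1% in hippocampus and 35.8% beside 27.9% in frontal cortex, so Pex5l in frontal cortex was the steadiest of the well-counted pairs of gene and region. Sampling of reads alone would give 8.2% for Pex5l in hippocampus and 8.5% in frontal cortex.

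**Figure D1:**
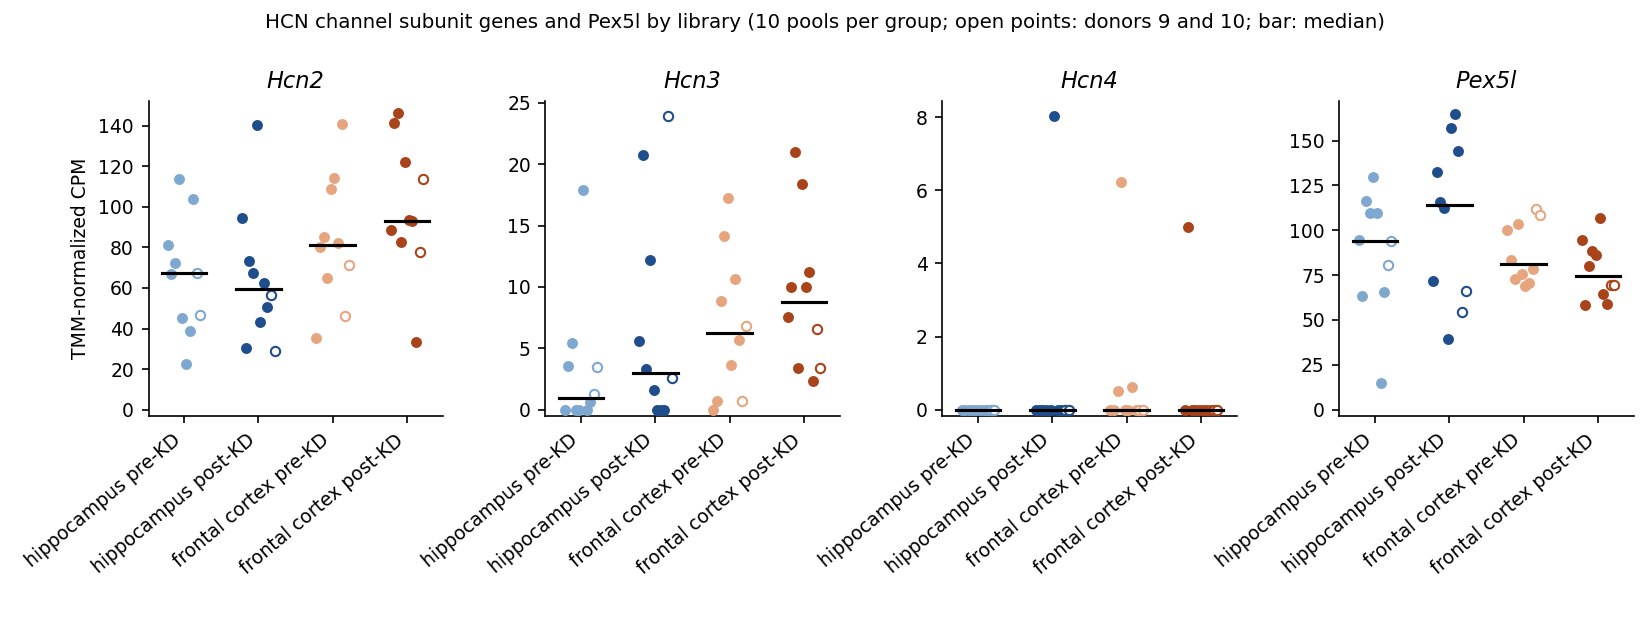
TMM-normalized CPM (linear axis) of Hcn2, Hcn3, Hcn4 and Pex5l in each of the 40 libraries, by region and stool condition; each point is a pool of 6 mice, open points are the pools of donors 9 and 10 and bars are medians. Hcn2 and Pex5l were present in all 40 libraries, Hcn3 was at 0 in 7 of 20 hippocampal libraries and Hcn4 was at 0 in 35 of 40.

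Between genes, levels were set side by side per kilobase of annotated exon, and in plain CPM because part of the study's text names a kit that reads only transcript ends, for which length does not count. Per kilobase, Hcn2 stood at 20.4 ± 9.44 CPM/kb in hippocampus and 28.5 ± 10.3 CPM/kb in frontal cortex (SD, n = 20), Pex5l at 10.9 ± 4.48 and 9.32 ± 1.90, Hcn3 at 1.23 ± 1.80 and 1.95 ± 1.46, and Hcn4 at 0.0658 ± 0.294 and 0.101 ± 0.282. Hcn2 was above Pex5l per kilobase in 15 of 20 hippocampal and 19 of 20 frontal cortical libraries. In plain CPM this was so in 7 of 20 and 11 of 20 libraries, so the order of these neighbours depends on the scale and is not settled beyond the spread in CPM. Pex5l was above Hcn3 in 20 of 20 libraries of each region on both scales. Hcn3 was above Hcn4 in 13 of 20 hippocampal libraries, with 6 more where both were at 0, and in 19 of 20 frontal cortical ones.

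Within the reads of the 3 channel genes, Hcn2 took 90.7% ± 13.6 in hippocampus and 91.9% ± 5.66 in frontal cortex (SD, n = 20). Hcn3 took 8.54% ± 13.6 and 7.52% ± 4.70, while its medians stood in the other order, at 3.10% and 7.80%, since 3 hippocampal libraries lay over 20%. The highest Hcn3 shares were 44.3% in hippocampus (donor 6 pre-KD, where Hcn2 was also at its lowest hippocampal value of 22.5 CPM) and 16.6% in frontal cortex. Per kilobase the Hcn2 share was 92.5% ± 11.5 and 93.7% ± 4.33.

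The regions of the same cohorts were compared for the level of each gene, with the cohort as a block. Hcn2 was lower in hippocampus than in frontal cortex in 14 of 20 cohorts, 7 of 10 pre-KD and 7 of 10 post-KD. The fitted level was 1.43-fold lower (95% confidence interval 1.11 to 1.82; log2 fold change -0.51 ± 0.18 SE), with p = 0.00478 before and 0.124 after Benjamini-Hochberg adjustment (quasi-likelihood test of edgeR), so it did not pass the adjusted threshold of 0.05. The median log2 fold change of all 19422 genes tested was -0.17 in this fit. With DESeq2, run without the minimum of 10 summed reads, the median was -0.02 over 23317 genes. In the edgeR fit Hcn2 stood 0.34 below the median. Without the pools of donors 9 and 10 the Hcn2 value was -0.49 (adjusted p = 0.254), and without donor 1 it was -0.64 (adjusted p = 0.0289), the only donor whose removal took it past the threshold. The adjusted p ranged from 0.0674 to 1 over 11 other settings. With the striatum markers as a covariate, the fitted value was -1.54 with an adjusted p of 1, and the number of genes called in the whole table dropped from 554 to 1.

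The other members did not pass either threshold between the regions. Hcn3 was lower in hippocampus in 13 of 20 cohorts, higher in 6 and at 0 in both in 1, with mean levels of 5.11 ± 7.46 and 8.11 ± 6.08 CPM (SD, n = 20). Its fitted log2 fold change was -1.55 ± 0.90 SE (95% interval -3.31 to 0.21, adjusted p = 0.581, edgeR), and -0.65 without the cohort block (adjusted p = 0.711). With striatum markers as a covariate the sign changed, to 0.28. Hcn4 had a fitted value of -0.90 (-2.40 to 0.60; adjusted p = 0.762) on 33 reads in all, and -0.53 without donor 4. Pex5l was higher in hippocampus in 10 of 20 cohorts and lower in 10, at 96.8 ± 39.7 against 82.5 ± 16.8 CPM. The fitted log2 fold change was 0.12 ± 0.17 SE (-0.20 to 0.44, adjusted p = 0.872, edgeR). It was 0.055 without donor 6 and 0.23 without the cohort block. The sign changed in pre-KD cohorts only (-0.11, beside 0.34 in post-KD cohorts only) and with striatum markers as a covariate (-0.18). At the adjusted threshold 0 of 4 members were called, where 2.85% of all genes tested were. At an unadjusted p under 0.05 1 of 4 was called, Hcn2, where 10.9% of all genes were.

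**Figure D2:**
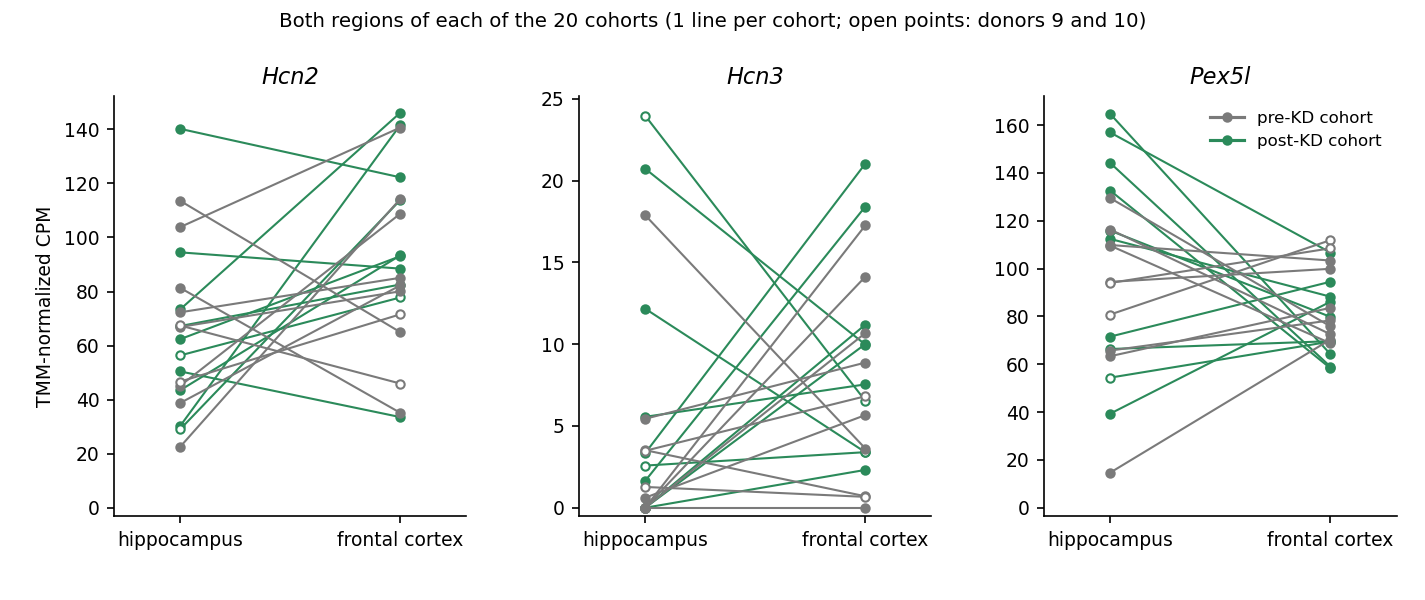
TMM-normalized CPM (linear axis) of Hcn2, Hcn3 and Pex5l in hippocampus and frontal cortex of each of the 20 cohorts, joined by a line; grey lines are pre-KD cohorts, green lines post-KD cohorts and open points the pools of donors 9 and 10. Hcn2 lines rose towards frontal cortex in 14 of 20 cohorts, while Pex5l lines went each way in 10.

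Ratios were taken within a library, and 6 comparisons of them were made and adjusted together. Where Hcn3 had 0 reads, as in 7 of 20 hippocampal libraries, its ratio to Hcn2 is set by the added 0.5 and the Hcn2 count, and so by depth as well. Donors 4 and 7 of hippocampus pre-KD, both at 0 Hcn3 reads, stood at -8.51 and -6.87 on this scale. The Hcn3 to Hcn2 ratio (log2 of counts + 0.5) was 1.02 lower in hippocampus on the log2 scale in the direction of 13 of 20 cohorts, at -4.91 ± 2.52 against -3.88 ± 1.22 (SD, n = 20; permutation test by flipping signs within cohorts, two-sided, 100000 resamples, p = 0.144, adjusted p = 0.386). The log2 ratio of Pex5l to the summed reads of the 3 channel genes was 0.39 ± 1.01 in hippocampus and -0.19 ± 0.76 in frontal cortex, a difference of 0.58 (1.49-fold), higher in hippocampus in 12 of 20 cohorts (same permutation test, p = 0.0575, adjusted p = 0.345). Neither passed. Without donor 2 the Hcn3 to Hcn2 difference was -1.44 (unadjusted p = 0.0498, permutation test), and the Pex5l difference was 0.74 without donor 1 (p = 0.0233) and 0.72 without donor 9 (p = 0.0303). In hippocampus this ratio ran from -1.84 in donor 5 post-KD, where Hcn2 was at its highest hippocampal level and Pex5l at 39.4 CPM, to 1.60 in donor 6 post-KD.

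**Figure D3:**
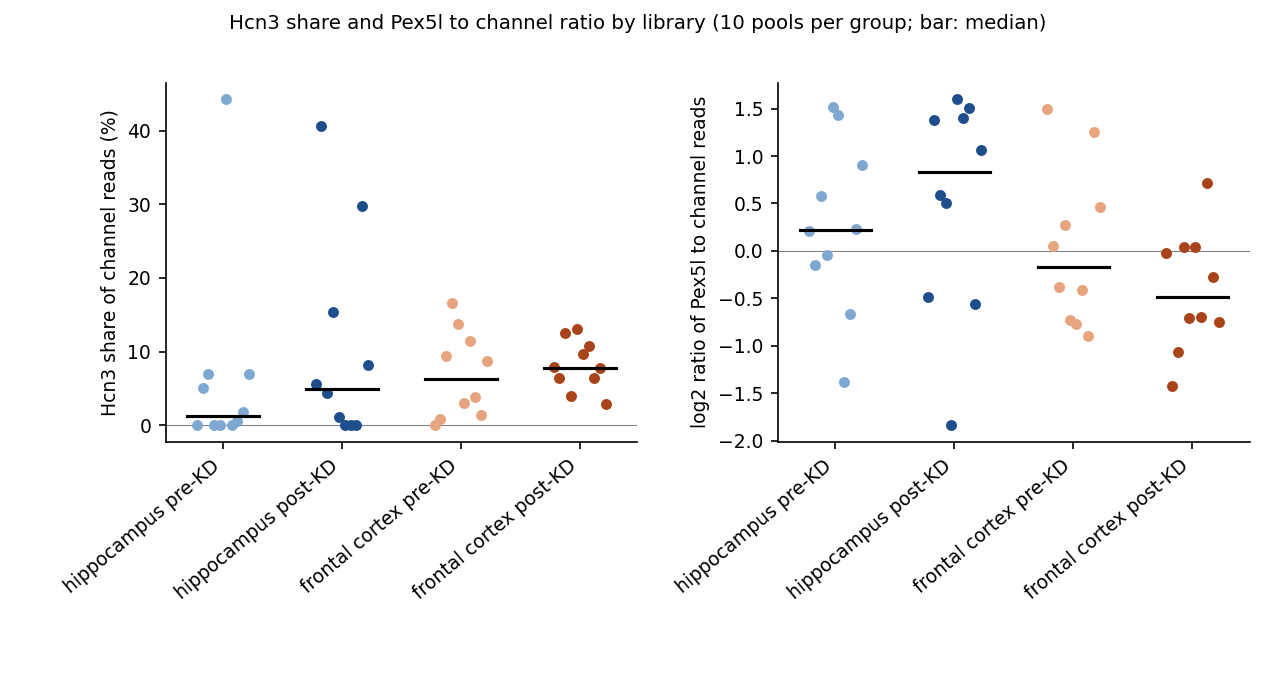
Left, share of Hcn3 in the reads of Hcn2, Hcn3 and Hcn4 (percent); right, log2 ratio of Pex5l to the summed reads of these channel genes; points are libraries (pools of 6 mice, 10 per group) and bars are medians. Hcn3 shares over 20% occurred in 3 libraries, all hippocampal, and the ratio of Pex5l to channel reads overlapped between all 4 groups.

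The post-KD libraries were compared with the pre-KD libraries in each region. In hippocampus Hcn2 was higher post-KD in 5 of 10 donors and lower in 5, with a fitted log2 fold change of -0.04 ± 0.29 SE, whose sign turned without donor 2, 4, 8 or 10 (0.06, 0.08, 0.10 and 0.004; 95% interval -0.61 to 0.54; adjusted p = 0.9998, edgeR). The data thus leave room for a change of up to about 1.45-fold up or 1.53-fold down. Hcn3 was higher post-KD in 5 donors, lower in 4 and at 0 in both for 1, with means of 6.997 ± 8.90 and 3.22 ± 5.50 CPM (SD, n = 10) and a fitted value of 1.09 ± 1.17 SE (-1.22 to 3.41; adjusted p = 0.9998). This value was 0.56 without donor 9 and 2.23 without donor 6. Pex5l was higher post-KD in 5 of 10 donors, at 106 ± 45.0 against 87.8 ± 33.5 CPM, with a fitted value of 0.26 ± 0.25 SE (-0.23 to 0.75; adjusted p = 0.996). Donor 7 held both the lowest pre-KD value (14.7 CPM) and the highest post-KD value (165 CPM) of Pex5l, and without this donor the fitted value was 0.050.

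Hcn4 had an unadjusted p of 0.00348 and an adjusted p of 0.0774 in hippocampus, all from the 10 reads of the library of donor 6 post-KD against 0 reads in the other 19 libraries. The summed post-KD level was 0.687 CPM (exact 95% Poisson interval 0.330 to 1.26, counting error only), but 9 of 10 post-KD libraries were at 0. With reads in 1 library, no lower bound is set on a fold change. With DESeq2 the adjusted p was 0.998, and without donor 6 the gene fell under the minimum of 10 reads and could not be fitted. In edgeR with no filter on low counts the adjusted p was 0.0449, in a setting where 1291 genes were called. At the adjusted threshold 0 of 4 members were called in hippocampus, where 0.00570% of all genes were. At an unadjusted p under 0.05 1 of 4 was called, where 10.1% of all genes were. This was Hcn4, which reached the minimum of 10 reads only through the group where it is high, so nothing is read from this count or from its p. With the donor as a block 348 in place of 1762 genes had such a p, and Hcn4 had a log2 fold change of 0.81 (adjusted p = 1).

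In frontal cortex Hcn2 was higher post-KD in 8 of 10 donors, with a fitted log2 fold change of 0.26 ± 0.20 SE (-0.14 to 0.66; unadjusted p = 0.203, adjusted p = 0.887; 0.47 without donor 8). Hcn3 was higher post-KD in 7 of 10 donors, at 9.38 ± 6.28 against 6.84 ± 5.91 CPM (SD, n = 10), with 0.44 ± 0.69 SE (-0.94 to 1.81; adjusted p = 0.993; 0.70 without donor 4 and 0.80 with the donor as a block). Pex5l was lower post-KD in 7 of 10 donors, at 77.6 ± 16.2 against 87.3 ± 16.8 CPM, with -0.17 ± 0.18 SE (-0.53 to 0.18; adjusted p = 0.960), an interval from a 1.44-fold decrease to a 1.14-fold increase. Without donor 9 the Pex5l value was -0.11, and without donor 6 it was -0.27. Hcn4 had -0.49 ± 1.36 SE on 23 reads (-3.21 to 2.23; adjusted p = 0.998), and 1.62 once donor 4, with 11 of these reads pre-KD, was left out. Of the 4 members 0 were called at the adjusted threshold, where 0.00560% of all genes were, and 0 at an unadjusted p under 0.05, where 9.68% of all genes were. With the donor as a block 548 in place of 1731 genes had such a p, in edgeR throughout.

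A term for region by stool condition tested whether the change differed between the regions. For Hcn2 the hippocampal change was 0.30 below the frontal cortical one on the log2 scale, at -0.30 ± 0.37 SE (95% interval -1.02 to 0.41; unadjusted p = 0.405; -0.12 without donor 2 and -0.52 without donor 5). For Pex5l it was 0.45 ± 0.33 SE above it (-0.20 to 1.101; unadjusted p = 0.175; 0.13 without donor 7), for Hcn3 0.16 ± 1.46 SE (-2.71 to 3.02; -0.86 without donor 4) and for Hcn4 1.71 ± 2.45 SE (-3.10 to 6.51). The adjusted p was 1 for each in edgeR. Of the 4 members 0 were called at either threshold, where 0.0154% of all genes were called after adjustment and 2.22% before it.

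**Figure D4:**
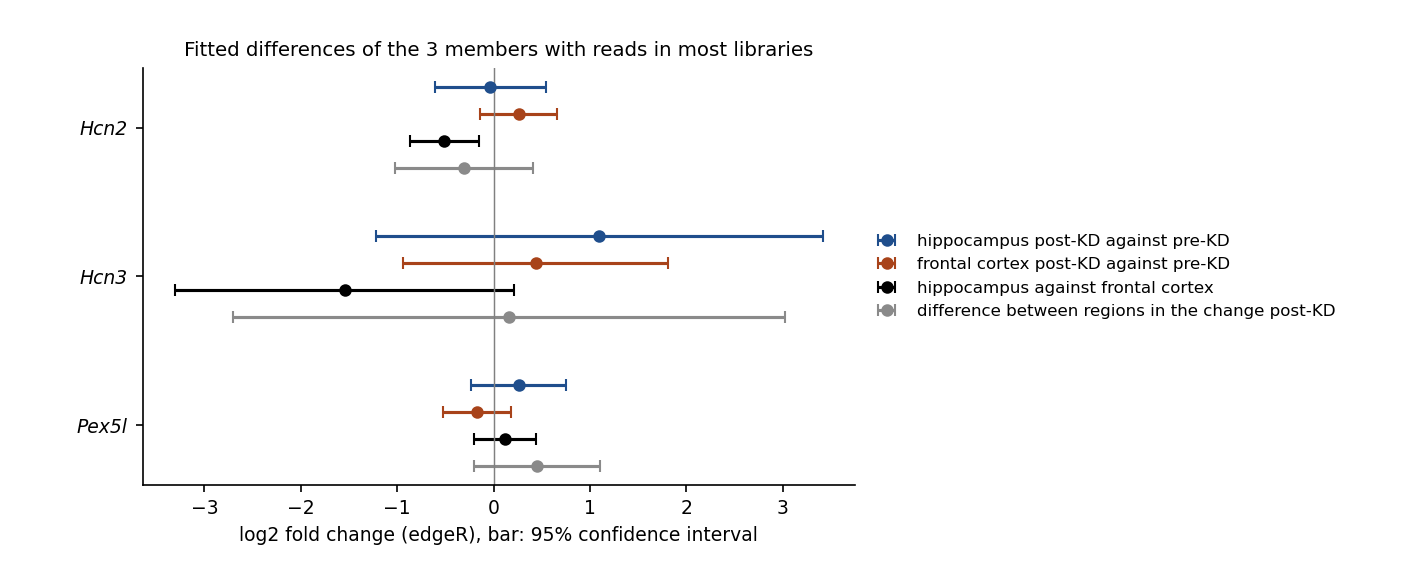
Fitted log2 fold changes (edgeR, points) with 95% confidence intervals (bars) of Hcn2, Hcn3 and Pex5l in 4 comparisons; Hcn4, with reads in 5 of 40 libraries, is left out. The interval of Hcn2 between regions, -0.87 to -0.16, is the only one of the 12 that does not include 0, and the Hcn3 intervals are the widest.

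The ratios gave no call between the stool conditions. The Hcn3 to Hcn2 ratio was 1.08 higher post-KD in hippocampus on the log2 scale (permutation test over 10 against 10 libraries, two-sided, p = 0.348, adjusted p = 0.417; 0.52 without donor 4 and 1.91 without donor 6) and 0.63 higher in frontal cortex (p = 0.258, adjusted p = 0.387; 0.37 without donor 1 and 0.96 without donor 4). The ratio of Pex5l to channel reads differed by 0.25 in hippocampus (p = 0.588, adjusted p = 0.588; -0.03 without donor 7) and by -0.45 in frontal cortex (p = 0.193, adjusted p = 0.386) in the same test.

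Leaving out the pools of donors 9 and 10 changed no call on a member. Hcn2 averaged 49.9 ± 16.3 CPM in these pools and 69.1 ± 31.9 CPM in the others in hippocampus (SD, n = 4 and 16), and 77.3 ± 28.0 and 94.5 ± 33.8 CPM in frontal cortex. Pex5l averaged 73.9 ± 17.2 and 103 ± 41.9 CPM in hippocampus and 89.9 ± 23.5 and 80.6 ± 15.1 CPM in frontal cortex. The fitted log2 change post-KD in hippocampus turned from -0.04 to 0.03 for Hcn2 without them, and went from 1.09 to 0.65 for Hcn3 and from 0.26 to 0.41 for Pex5l. In frontal cortex it went from 0.26 to 0.16 for Hcn2, from 0.44 to 0.43 for Hcn3 and from -0.17 to -0.043 for Pex5l. Between the regions Hcn3 went from -1.55 to -2.30 and Pex5l from 0.12 to 0.22. In the difference between the regional changes Hcn2 went from -0.30 to -0.095, Hcn3 from 0.16 to 0.095 and Pex5l from 0.45 to 0.52. The difference in the log2 ratio of Pex5l to channel reads between stool conditions in frontal cortex went from -0.45 to -0.22, and that of Hcn3 to Hcn2 between regions from -1.02 to -1.51.

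Genes around the channels were described from lists: proteins that bind HCN channels, adenylyl cyclases, which make cAMP, phosphodiesterases, which break it down, and other channels with a cyclic nucleotide-binding or homologous domain. These lists held 52 genes of the table, of which 47 were tested between regions, and 8 of 47 (17%) were called after adjustment, 2 higher and 6 lower in hippocampus, beside 2.85% of all genes. Among 9 adenylyl cyclases tested, Adcy5 was lower in hippocampus (41.9 ± 24.9 against 93.8 ± 22.7 CPM, SD, n = 20; log2 fold change -1.31 ± 0.20 SE, adjusted p = 7.73e-09) and Adcy1 was higher (350 ± 93.8 against 254 ± 46.5 CPM; 0.45 ± 0.10 SE, adjusted p = 0.000331). Of 15 phosphodiesterases, Pde1b (-1.59 ± 0.14 SE, adjusted p = 4.73e-27), Pde10a (-1.66 ± 0.16 SE, adjusted p = 2.41e-22) and Pde1c (-2.47 ± 0.73 SE, adjusted p = 0.0294) were lower in hippocampus. Pde1a, named after its value was seen, was higher (0.36 ± 0.11 SE, adjusted p = 0.0469). Pde10a, Pde1b and Adcy5 are known as abundant in striatum, and 6 of 6 striatum markers tested were lower in hippocampus, among them Ppp1r1b (63.4 ± 28.7 against 329 ± 67.9 CPM). The striatum sums did not overlap between the regions, so a fit with these markers as a covariate, which left 1 gene of the whole table called, cannot tell region and striatal tissue apart. The part of striatal tissue in the values of these enzymes was not tested.

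Of 10 related channels tested between regions, Kcnh1 (59.9 ± 29.4 against 117 ± 30.1 CPM; -1.12 ± 0.17 SE, adjusted p = 1.3e-08) and Kcnh7 (56.7 ± 32 against 95.5 ± 37.1 CPM; -0.89 ± 0.19 SE, adjusted p = 0.000282), voltage-gated potassium channels of the ether-a-go-go family, were lower in hippocampus. Of 13 HCN partner proteins 0 were called after adjustment, and the smallest p-values were those of the phosphatase Ptpra (0.34 ± 0.13 SE, adjusted p = 0.177) and of Kcne2 (1.58 ± 2.34 against 0.0314 ± 0.14 CPM, adjusted p = 0.232), an auxiliary potassium channel subunit also strongly expressed in choroid plexus and itself 1 of the 7 choroid plexus markers used here. Of these 7 markers 5, Kcne2 not among them, were higher in hippocampus after adjustment, led by Ttr at 1589 ± 871 against 140 ± 150 CPM. The median log2 fold change was 0.01 for the partner proteins, -0.52 for the cyclases, -0.59 for the phosphodiesterases and -0.67 for the related channels, beside -0.17 for all genes.

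Between post-KD and pre-KD libraries 0 genes of these lists were called after adjustment in either region. At an unadjusted p under 0.05, 6 of 46 tested (13%) were called in hippocampus, 3 higher and 3 lower, beside 10.1% of all genes, and 6 of 44 (13.6%) in frontal cortex, 2 higher and 4 lower, beside 9.68%. These shares lie near those of all genes. In hippocampus these included the membrane tether Vapa among the partners (126 ± 38.9 against 91.1 ± 40.2 CPM; 0.45 ± 0.22 SE, adjusted p = 0.459) and Pde11a (16.5 ± 13.4 against 33.4 ± 20.1 CPM; -1.02 ± 0.51 SE, adjusted p = 0.487). The other 4 in hippocampus were related channels counted at a mean of at most 7.05 CPM, Cngb3, Kcnh5, Kcnh6 and Kcnh8. Cngb3 was at 0 in all pre-KD libraries and Kcnh6 at 0 in all post-KD libraries of the region, so both reached the read minimum only through the group where they had reads, and their calls carry no weight. In frontal cortex they included the adaptor Apba2 (102 ± 28.7 against 74.4 ± 14.03 CPM; 0.45 ± 0.18 SE, adjusted p = 0.246), Adcy9 (38.4 ± 13.4 against 58.9 ± 16.5 CPM; -0.62 ± 0.24 SE, adjusted p = 0.226), Pde4d (45.8 ± 16.5 against 73.9 ± 20.7 CPM; -0.69 ± 0.22 SE, adjusted p = 0.122) and Kcnh7 (79.1 ± 30.3 against 112 ± 37.3 CPM; -0.50 ± 0.20 SE, adjusted p = 0.262). Between the regional changes 3 of 47 had an unadjusted p under 0.05, beside 2.22% of all genes. They were Adcy9 (0.97 ± 0.46 SE), Kcnh7 (0.99 ± 0.38 SE) and Pde7b (-3.33 ± 1.62 SE), with an adjusted p of 1 each.

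Across the 40 libraries, with the mean of each region removed, the genes most like each member in log2 CPM were taken from about 4820 genes averaging at least 50 reads; the libraries share depth and dissection, genes are not independent, and these values are descriptions. For Pex5l they were Kcnip3, a calcium sensor that binds potassium channels (Pearson r = 0.77, Spearman rho = 0.61), Rab3gap2, a regulator of RAB GTPases (r = 0.74, rho = 0.69) and Neurod2, a neuronal transcription factor (r = 0.68, rho = 0.57). Without donor 7 pre-KD and donor 5 post-KD of the hippocampus, the libraries farthest from the median of Pex5l, these r were 0.59, 0.58 and 0.57. In the same order they were 0.85, 0.81 and 0.82 over the hippocampal libraries and 0.46, 0.68 and 0.39 over the frontal cortical ones. For Hcn2 they were Gm45837 (r = 0.69, rho = 0.64), Gtf2h5 (r = 0.62, rho = 0.56) and Camsap2 (r = 0.62, rho = 0.53), with r of 0.73, 0.52 and 0.62 without the 2 farthest libraries. Gm45837 overlaps the phosphodiesterase gene Pde2a on the same strand in GENCODE M21, so its reads may belong to either. For Hcn3 they were Chpf, Bcas3 and Dnajc8, with r of 0.55, 0.52 and 0.51 (rho of 0.45, 0.49 and 0.45) and of 0.48, 0.41 and 0.44 without the 2 farthest libraries. For Hcn4, at 0 in 35 libraries, Ogdh and Rgs7 were among the most like genes, with r of 0.47 and 0.43 (rho of 0.28 and 0.20), and of 0.34 and 0.22 without the 2 libraries with most reads.

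Among the members, Hcn2 and Pex5l had r = -0.14 (rho = -0.27) over the 40 libraries. Hcn2 and Hcn3 had r = 0.08 (rho = 0.15), with r = 0.64 over the 20 frontal cortical libraries and r = -0.30 over the 20 hippocampal ones. Without the 2 libraries farthest from the median of Hcn3, the r over both regions was -0.008. Hcn3 and Pex5l had r = -0.02 (rho = -0.14).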

How the data were processed

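RNA from hippocampus and frontal cortex of colonized mice was sequenced in 40 libraries, each a pool of 6 mice. The authors deposited unnormalized read counts per Ensembl gene, 1 table of 20 libraries per region, whose values were checked to be whole numbers. According to the methods, paired reads of 69 bp were checked with FastQC 0.11.5, trimmed, aligned to mm10 with STAR 2.5.2a and counted with HTSeq-count 0.6.0 (SAMtools 1.3). The methods name a TruSeq kit, while the list of resources names a kit for transcript 3′ ends and another aligner, so levels between genes are given with and without division by exon length. Identifiers were named from GENCODE M21, which matched 47224 of 47643; the release used for counting is not given in the sources used here. All 40 columns were used.

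The quasi-likelihood test of edgeR 4.0.16 (R 4.3.3, TMM scaling) was run on each gene that reached 10 summed counts, and p was adjusted over all genes by the Benjamini-Hochberg method. Post-KD and pre-KD libraries were compared per region without a donor term (the methods name DESeq2 and give no model formula), and the 20 cohorts were a block for the regions and for the difference between regional changes. SD is over libraries. An unadjusted threshold of 0.05, which the study used, is given beside the adjusted one. Ratios of members were taken on counts + 0.5 and tested by permutation (100000 resamples, scipy 1.17.1, numpy 2.4.6, pandas 2.3.3, Python 3.11.15; plots with matplotlib 3.10.9). Log2 CPM for likeness used a prior count of 2. The procedure was tested on simulated data.

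The members and gene lists were chosen with earlier results of these data known. Named genes are the members, the 3 genes most like each, and up to 3 genes per list and comparison with the smallest p among those called, or at an unadjusted p under 0.05 where none was called. Marker lists are given as counts with up to 2 abundant genes. Some genes that these rules select are not reported here. Alternatives were DESeq2 1.42.0, other filters and size factors, a donor block, covariates, leaving out the most abundant RNA species Gm42418 (8.63% to 18.0% of the counts in a library), and leaving out each donor. Those without donors 9 and 10 and with striatum markers as a covariate were chosen after seeing the data. Same-numbered libraries share a stool donor but not mice. After removing condition means, the pre-KD library of each donor and its post-KD counterpart were correlated across 8157 genes. The values were -0.0298 to 0.0274 in hippocampus and -0.0467 to 0.0322 in frontal cortex. The 2 regional libraries of a cohort, the block of the region fits, correlated at -0.0231 to 0.202 pre-KD and -0.001 to 0.0502 post-KD. A value above 0.1 was reached by 1 of 10 pre-KD and 0 of 10 post-KD cohorts. Of 180 pairs of libraries within groups, 0 were identical. With pools as replicates, p-values measure the spread between pools only, and depth limits Hcn3 and Hcn4.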

Additional observations from a re-analysis of the deposited data

Results flagged for a closer look

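Single libraries stood far from the other 9 of their group in 4 of 24 groups of member values checked by a test of the gap between the extreme library and its nearest neighbour. For continuous values chance meets this test in about 1 of 20 groups. That rate does not hold for Hcn4, where nearly all libraries were at 0 and any library with several reads meets it. In hippocampus pre-KD, Hcn3 was at 17.9 CPM in donor 6 and at most 5.44 CPM in the other libraries. The gap spanned 0.696 of the range. Hcn4 was at 8.05 CPM in donor 6 of hippocampus post-KD, where the other 9 libraries were at 0. In frontal cortex Hcn4 was at 6.21 CPM in donor 4 pre-KD, with the next library at 0.628 CPM, and at 4.99 CPM in donor 2 post-KD, with the others at 0. The 3 Hcn4 values rest on 10, 11 and 10 reads.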

How the results depend on the processing

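Of 145 values of single members under alternatives other than leaving out a donor, 138 kept their direction and did not pass the adjusted threshold, 1 of them (Hcn4 between regions with DESeq2) because no adjusted p was given. Hcn4 in hippocampus post-KD passed it with no filter on low counts (3.43, adjusted p = 0.0449), a setting that also raised the number of genes called from 1 to 1291. The remaining 6 changed sign without passing: Hcn2 in hippocampus post-KD was 0.030 with oligodendrocyte markers as a covariate and 0.034 without donors 9 and 10, and between regions Hcn3 was 0.28 and Pex5l -0.18 with striatum markers as a covariate, Pex5l was -0.11 in pre-KD cohorts only and Hcn4 was 0.021 in post-KD cohorts only. Without the cohort block Hcn3 between regions was -0.65, and Hcn3 in frontal cortex post-KD was 0.80 with the donor block and 0.74 with oligodendrocyte markers as a covariate. Hcn3 in the difference between regional changes was 0.65 without the cohort block and 0.079 with DESeq2, and Pex5l between regions was 0.34 in post-KD cohorts only. Hcn4 in frontal cortex post-KD was -1.04 with the donor block, -0.79 with the donor group and -2.26 with oligodendrocyte markers as a covariate, and 1.83 in hippocampus with the latter. Between regions Hcn4 was -0.37 with DESeq2, -0.57 without the cohort block, -1.69 in pre-KD cohorts only and -4.84 with striatum markers, and 3.98 in the difference between regional changes without the cohort block. The tested ratios kept their direction and passed no threshold under the donor block, per kilobase or without donors 9 and 10, and the shares of channel reads, which have no test, moved by less than their SD per kilobase. The causes were not tested.

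Genes called over the whole table moved more. In hippocampus post-KD the adjusted count of 1 became 0 with DESeq2, with filterByExpr and with the donor as a block, and the unadjusted count of 1762 became 569, 221 and 348, or 2931 with no filter. In frontal cortex the adjusted count of 1 became 2 with DESeq2 and 3 with the block, and the unadjusted count of 1731 became 756 with DESeq2, 407 with filterByExpr, 548 with the block and 3035 with no filter. Between regions 554 became 1026 with DESeq2, 2100 without the cohort block, 193 and 251 in pre-KD and post-KD cohorts only, where fewer libraries entered, and 1 with the striatum covariate. For the difference between regional changes 3 became 0 with DESeq2 and 348 without the cohort block, and 431 became 948 and 1767. The donor block changed no call on a member at the adjusted threshold.

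Leaving out each donor in turn gave ranges of -0.29 to 0.10 for Hcn2, 0.56 to 2.23 for Hcn3 and 0.050 to 0.43 for Pex5l in hippocampus post-KD. In frontal cortex post-KD they were 0.17 to 0.47 for Hcn2, 0.27 to 0.70 for Hcn3, -3.59 to 1.62 for Hcn4 and -0.27 to -0.11 for Pex5l. They were -0.64 to -0.39 for Hcn2, -2.03 to -1.06 for Hcn3, -1.42 to -0.53 for Hcn4 and 0.055 to 0.17 for Pex5l between regions, and -0.52 to -0.12 for Hcn2, -0.86 to 1.17 for Hcn3, 0.94 to 2.82 for Hcn4 and 0.13 to 0.69 for Pex5l in the difference between regional changes. The Hcn3 to Hcn2 ratio between regions ran from -1.44 to -0.66 and post-KD from 0.52 to 1.91 in hippocampus and from 0.37 to 0.96 in frontal cortex, the Pex5l ratio between regions from 0.43 to 0.74 and the Pex5l ratio in hippocampus post-KD from -0.028 to 0.65, and in frontal cortex from -0.68 to -0.33. The adjusted count in hippocampus ran from 0 to 1, with 0 without donor 4 or 9. In hippocampus, Hcn4 had under 10 reads without donor 6 and was not fitted. It also had too few reads to pass filterByExpr in either region's comparison of stool conditions, as did Hcn3 in hippocampus.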
